A study of Homo sapiens with 12 samples.

Results

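The mevalonate arm of isoprenoid synthesis was followed here through 7 genes, ACAT2, HMGCS1, MVK, PMVK, MVD, IDI1 and FDPS, out of 20375 genes listed for each library. They were grouped by the reaction their enzymes catalyse, but were chosen with earlier results of these data known. All 7 passed the filter on low values that left 12517 genes for testing. The cells were PE/CA-PJ41, an established line of human oral squamous cell carcinoma (OSCC), and polyadenylated RNA was sequenced. Control cells were untreated, plasma cells had received human plasma at 10% for 48 h, and PRP cells had received platelet-rich plasma at 10% for 48 h. Each group had 4 libraries, all from this 1 line. How long the control cells grew is not stated, so times may not be matched. Nor is it stated that each replicate was a culture of its own, so the p-values speak for the variation among these libraries, possibly only technical.

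The mevalonate arm builds the 5-carbon units from which cholesterol, ubiquinone, dolichol and the lipid anchors of small GTPases are made. It condenses acetyl-CoA into HMG-CoA, passes through mevalonate and its phosphates to isopentenyl diphosphate, and joins these units into farnesyl diphosphate, where the sterol and non-sterol branches part. Transcription of its genes is known to be driven by SREBP-2, a membrane-bound factor that is released when sterols in the endoplasmic reticulum are low, and FDPS is the target of the nitrogen-containing bisphosphonates.

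Levels are in TPM (a share of all transcripts), which are scaled for transcript length and so can be compared between genes, with SD over 4 libraries as the error. Total estimated reads per library lay between 36258955 and 41976136. Estimated reads for a member ran from 655 for PMVK in a plasma library to 33258 for FDPS in a control library. All 8 squamous epithelial markers checked reached at least 1 TPM in all 12 libraries, and their summed level lay at 11297 to 12708 TPM in control libraries, 13911 to 15227 with plasma and 13941 to 15514 with PRP. Of 8 platelet markers 4 had no read in any library, PF4 among them, and the list summed to at most 0.718 TPM in control, 0.645 in plasma and 0.424 in PRP. Of 6 erythroid markers 3 had no read, HBB among them, with sums of 1.45 to 2.77, 1.21 to 1.92 and 1.05 to 2.87 TPM in control, plasma and PRP. Of 10 leukocyte markers 2 had no read, MS4A1 and CSF3R, only CD14 reached 1 TPM in every library, and the sum was 3.28 to 5.27 TPM in control libraries, 6.59 to 11.5 with plasma and 7.91 to 9.49 with PRP. The highest values in that list were those of CD14 (1.02 to 6.27 TPM over all libraries) and S100A8 (0 to 4.26 TPM). No other leukocyte marker exceeded 1.52 TPM, the highest value of LYZ. Of 6 fibroblast markers none was at 0 in all libraries, and the sums were 16.2 to 21.6, 14.5 to 18.2 and 13.6 to 14.7 TPM. The squamous and leukocyte sums of control libraries overlapped neither treated group, and the platelet and fibroblast sums of control did not overlap PRP. What part these transcripts have in the results below was not tested.

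With either treatment 6 of the 7 mevalonate genes fell against control, and PMVK did not pass the test in either comparison. The falls with plasma ran from a log2 difference of -0.49 for MVK to -1.50 for FDPS, and with PRP from -0.28 for HMGCS1 to -1.34 for FDPS. An adjusted p under 0.05 in limma with a lower level was reached by 29% of the 12517 genes tested with plasma and by 31.5% with PRP, and with a higher level by 20.3% and 21.7%. All 4 treated libraries lay below all 4 control libraries in 6 of 7 members for each treatment, and in 25.7% of all genes for plasma and 27.8% for PRP. The median difference over the 7 genes was -0.62 with plasma and -0.40 with PRP, against -0.05 and -0.06 over all genes tested. Both treatments were set against the same control libraries, so their differences from control are not independent. Differences are on the scale of log2(TPM + 1), and in bulk RNA fewer cells expressing a gene and less of its RNA per cell cannot be told apart.

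**Figure D1:**
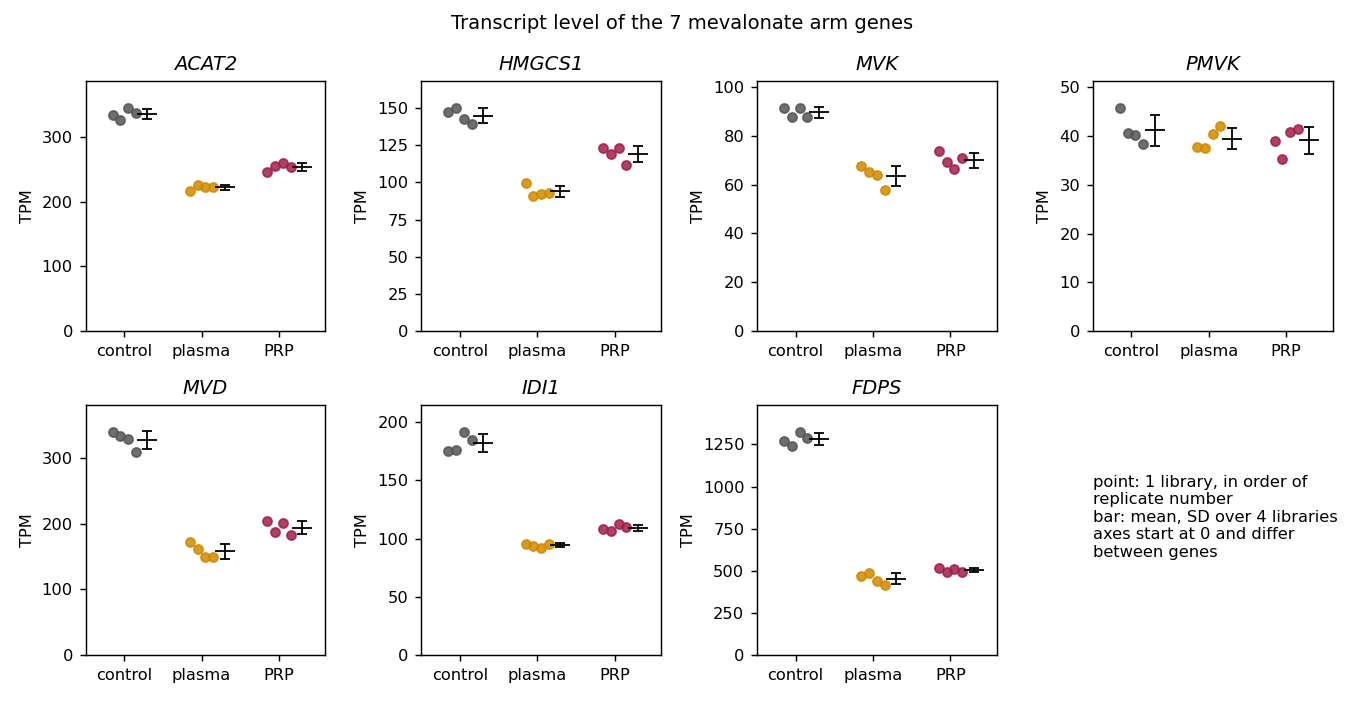
Level of each mevalonate gene in TPM (vertical axes, from 0, different for each gene) by group, with 1 point per library and a bar for the mean and SD of 4 libraries. In all genes but PMVK the control points lie above every plasma and PRP point, with FDPS at 1241 to 1327 TPM in control and 418 to 518 TPM in the treated libraries.

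The arm opens with ACAT2, the cytosolic thiolase that joins acetyl-CoA molecules into acetoacetyl-CoA. ACAT2 stood at 333, 326, 345 and 336 TPM in the control libraries, at 217, 225, 223 and 222 in plasma and at 245, 255, 260.1 and 254 in PRP. The 3 groups did not overlap, with control highest and plasma lowest. Its mean fell by 33.8% with plasma (log2 difference -0.59 ± 0.03 SE, limma adjusted p = 6.64e-09) and by 24.3% with PRP (log2 difference -0.40 ± 0.03 SE, limma adjusted p = 1.43e-07).

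HMGCS1 encodes the cytosolic HMG-CoA synthase, which adds a further acetyl unit to the product of ACAT2. HMGCS1 was at 147, 150.0, 143 and 139 TPM in control, at 99.5, 91.1, 92.4 and 93.1 in plasma and at 123, 119, 123 and 112 in PRP. PRP libraries lay between the other groups without overlap. The mean was 35.1% lower with plasma (log2 difference -0.62 ± 0.04 SE, limma adjusted p = 7.57e-08) and 17.7% lower with PRP (log2 difference -0.28 ± 0.04 SE, limma adjusted p = 7.37e-05), the smallest fall among the 6 called genes in PRP.

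The kinases come next. MVK, mevalonate kinase, adds the first phosphate and is the gene mutated in mevalonic aciduria. Its level was 91.3, 87.6, 91.4 and 87.8 TPM in control, 67.7, 65.0, 64.0 and 57.7 in plasma, and 73.6, 69.3, 66.2 and 70.7 in PRP. Both treated groups lay wholly below control, and they overlapped each other. The log2 difference was -0.49 ± 0.05 (SE, limma adjusted p = 2.57e-06) with plasma and -0.35 ± 0.05 (SE, limma adjusted p = 3.85e-05) with PRP.

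PMVK, phosphomevalonate kinase, adds the second phosphate. It had 45.8, 40.6, 40.2 and 38.4 TPM in control, 37.7, 37.6, 40.5 and 42.0 in plasma, and 39.0, 35.3, 40.9 and 41.4 in PRP. All 3 groups overlapped, and their means were 41.2 ± 3.20, 39.4 ± 2.16 and 39.1 ± 2.79 TPM. The log2 difference from control was -0.06 with plasma (95% interval -0.20 to 0.08, limma adjusted p = 0.452) and -0.07 with PRP (95% interval -0.21 to 0.06, limma adjusted p = 0.353). Those intervals do not reach the estimate of any other member in the same comparison. PMVK is also the member with the fewest reads, at most 872 in a library.

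MVD, mevalonate diphosphate decarboxylase, releases isopentenyl diphosphate. Control libraries held 341, 335, 329 and 309 TPM, plasma libraries 172, 161, 149 and 149, and PRP libraries 205, 188, 201 and 183. Control lay far above both treated groups, and the lowest PRP library was above the highest plasma library. The mean fell by 51.9% with plasma (log2 difference -1.05 ± 0.05 SE, limma adjusted p = 6.60e-09) and by 40.8% with PRP (log2 difference -0.75 ± 0.05 SE, limma adjusted p = 7.63e-08).

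IDI1, the isomerase that turns isopentenyl diphosphate into the reactive dimethylallyl diphosphate, was at 176, 176, 192 and 185 TPM in control, 95.4, 93.1, 92.0 and 95.5 in plasma, and 108, 106, 112 and 110.0 in PRP. No library of one group fell within the range of another. The mean was 48.3% lower with plasma (log2 difference -0.94 ± 0.04 SE, limma adjusted p = 7.72e-10) and 40.0% lower with PRP (log2 difference -0.73 ± 0.04 SE, limma adjusted p = 4.32e-09). Its paralog IDI2 had no read in 11 libraries and 4 reads in control replicate 4.

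FDPS, farnesyl diphosphate synthase, closes the arm and is its most abundant transcript. Control libraries had 1269, 1241, 1327 and 1287 TPM, plasma libraries 471, 485, 438 and 418, and PRP libraries 518, 491, 512 and 494. Every treated library was below every control library, and each PRP library was above each plasma library. The mean went from 1281 ± 36.1 TPM in control cells to 453 ± 30.7 with plasma, where it fell by 64.6% (log2 difference -1.50 ± 0.04 SE, limma adjusted p = 1.01e-10). In PRP it was 503.7 ± 13.3 TPM, which was 60.7% lower (log2 difference -1.34 ± 0.04 SE, limma adjusted p = 2.67e-10). By p-value FDPS ranked 1 of all 12517 genes in both comparisons with control. IDI1 ranked 5, MVD 22 and ACAT2 26 in the plasma comparison.

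The estimated transcript lengths that enter TPM moved little for these genes. The largest shift in effective length was 0.04 on the log2 scale, with either treatment. Differences in CPM, reads scaled to the library total without the length, departed from those in TPM by at most 0.07 with plasma and 0.06 with PRP on the log2 scale. For FDPS the log2 difference in CPM was -1.43 with plasma and -1.28 with PRP.

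**Figure D2:**
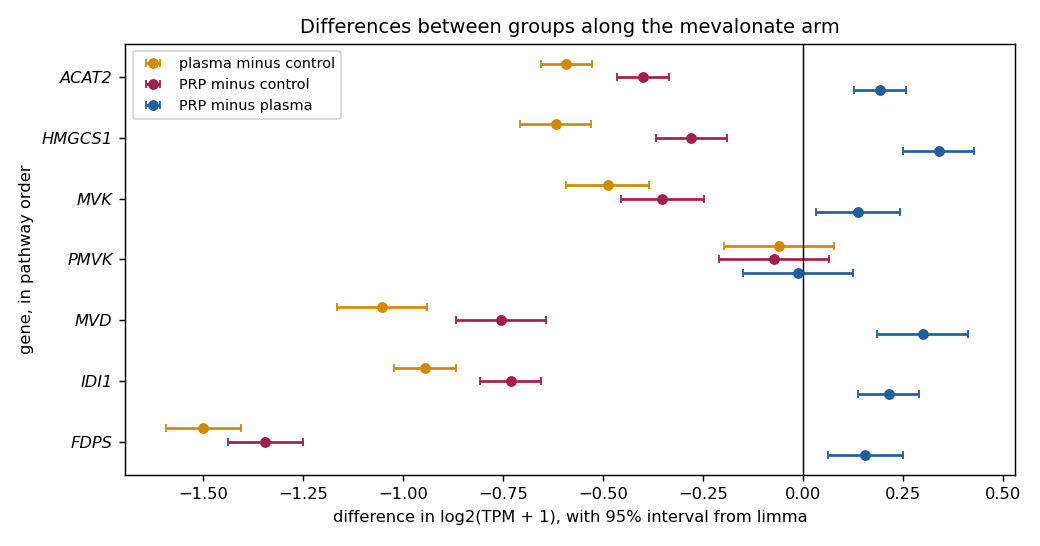
Difference in log2(TPM + 1) for each mevalonate gene in pathway order (vertical axis), with the 95% interval from limma, for plasma minus control, PRP minus control and PRP minus plasma. The differences from control are smallest in size at PMVK, whose intervals include 0, and largest at FDPS, with -1.50 in plasma and -1.34 in PRP.

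The direct comparison of PRP with plasma asks what platelet-rich plasma did beyond plasma itself. Here 2 of the 7 genes passed the test, both higher in PRP, while 0.0639% of all genes tested passed in that direction, 8 of 12517. HMGCS1 was 26.8% higher in PRP (log2 difference 0.34 ± 0.04 SE, limma adjusted p = 0.00544) and ranked 2 of all genes by p-value. ACAT2 was 14.3% higher (log2 difference 0.19 ± 0.03 SE, limma adjusted p = 0.0332) and ranked 6. The ACAT2 call was lost when any 1 plasma library was left out (limma adjusted p = 0.0835 to 0.112), and without PRP replicate 2 (0.104), replicate 3 (0.139) or replicate 4 (0.059). With all 12 libraries it was lost after median centring (limma adjusted p = 0.179) and in voom on reads (0.0923) and on length-divided reads (0.150). It was lost too without the 3 libraries numbered 1 (limma adjusted p = 0.143). The HMGCS1 call held under each of 20 alternatives, with adjusted p up to 0.04995.

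The other members were not called in that comparison. MVD had a log2 difference of 0.30 (95% interval 0.19 to 0.41, limma adjusted p = 0.0628) and IDI1 one of 0.21 (95% interval 0.14 to 0.29, limma adjusted p = 0.0511). MVD passed in 5 of 20 alternatives, namely after median centring (limma adjusted p = 0.00836), in voom on reads (0.00375) and on length-divided reads (0.0206), with a replicate block (0.0162), and without plasma replicate 1 (0.02875). IDI1 passed in 3, with only the 8 libraries compared (limma adjusted p = 0.0391) and without control replicate 1 (0.044) or 3 (0.0326). FDPS differed by 0.15 (95% interval 0.06 to 0.25, limma adjusted p = 0.34), MVK by 0.14 (95% interval 0.03 to 0.24, limma adjusted p = 0.468) and PMVK by -0.01 (95% interval -0.15 to 0.12, limma adjusted p = 0.99). No member passed as lower in limma, and at an unadjusted p under 0.05 the count was 0 lower and 6 higher. The share of all genes at that unadjusted level was not counted, here or for the lists below. By overlap, 5 of 7 genes had every PRP library above every plasma library, namely ACAT2, HMGCS1, MVD, IDI1 and FDPS, against 2.63% of all genes tested. Group means were ordered control, then PRP, then plasma in 6 of the 7 genes, and in 20.6% of all genes tested.

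Summed over the 7 genes, the arm held 2402 ± 47.6 TPM in control, 1124 ± 42.0 in plasma and 1289 ± 28.7 in PRP. The 3 groups did not overlap, at 2355 to 2467, 1077 to 1160.3 and 1263 to 1315 TPM. FDPS supplied 53.3 ± 0.673% of that sum in control, 40.3 ± 1.31% in plasma and 39.1 ± 0.283% in PRP. Without FDPS the sums were 1121 ± 20.03, 671 ± 13.8 and 785 ± 16.2 TPM.

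The order of levels changed in its middle. In control FDPS came first, then ACAT2 at 326 to 345 TPM and MVD at 309 to 341 TPM, whose ranges overlap, then IDI1, HMGCS1, MVK and PMVK without overlap between neighbours. In plasma ACAT2 (217 to 225 TPM) stood clear of MVD (149 to 172 TPM), and IDI1 and HMGCS1 shared a mean of 94.0 TPM with overlapping ranges. In PRP HMGCS1 had a higher mean than IDI1, 119 ± 5.25 against 109 ± 2.42 TPM, and the ranges touched at their edges, with a lowest HMGCS1 value of 111.9 and a highest IDI1 value of 112.1 TPM. MVK and PMVK came last in all 3 groups.

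Ratios of each gene to the one before it, taken within a library, compare the sizes of the falls along the arm. Of 18 such comparisons (6 ratios, 3 pairs of groups), 6 gave the smallest two-sided p that the exact permutation test of 4 against 4 libraries allows, 0.0286, and their adjusted p was 0.0857, so 0 of 18 passed at 0.05. The ratio of MVD to PMVK was 7.44, 8.25, 8.20 and 8.05 in control, 4.57, 4.29, 3.69 and 3.54 in plasma, and 5.26, 5.33, 4.93 and 4.42 in PRP. All treated libraries were below all control libraries, and plasma and PRP overlapped. The log2 ratio differed from control by -0.996 with plasma and -0.68 with PRP.

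FDPS to IDI1 stood at 7.23, 7.06, 6.92 and 6.96 in control, 4.93, 5.21, 4.76 and 4.38 in plasma, and 4.79, 4.61, 4.57 and 4.496 in PRP. Again control lay apart and the treated groups overlapped. The log2 ratio differed from control by -0.55 with plasma and -0.61 with PRP, while PRP and plasma differed by -0.06 (exact permutation p = 0.343, adjusted p = 0.386). PMVK to MVK was the third ratio apart from control, at 0.461 ± 0.0301 in control, 0.624 ± 0.0759 in plasma and 0.561 ± 0.0503 in PRP, or 0.43 and 0.28 higher on the log2 scale. The remaining ratios overlapped between groups. HMGCS1 to ACAT2 was 0.433 ± 0.0230, 0.424 ± 0.0240 and 0.470 ± 0.0249, MVK to HMGCS1 was 0.618 ± 0.0246, 0.676 ± 0.0399 and 0.588 ± 0.0383, and IDI1 to MVD was 0.555 ± 0.0415, 0.597 ± 0.0396 and 0.563 ± 0.0299, in control, plasma and PRP.

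**Figure D3:**
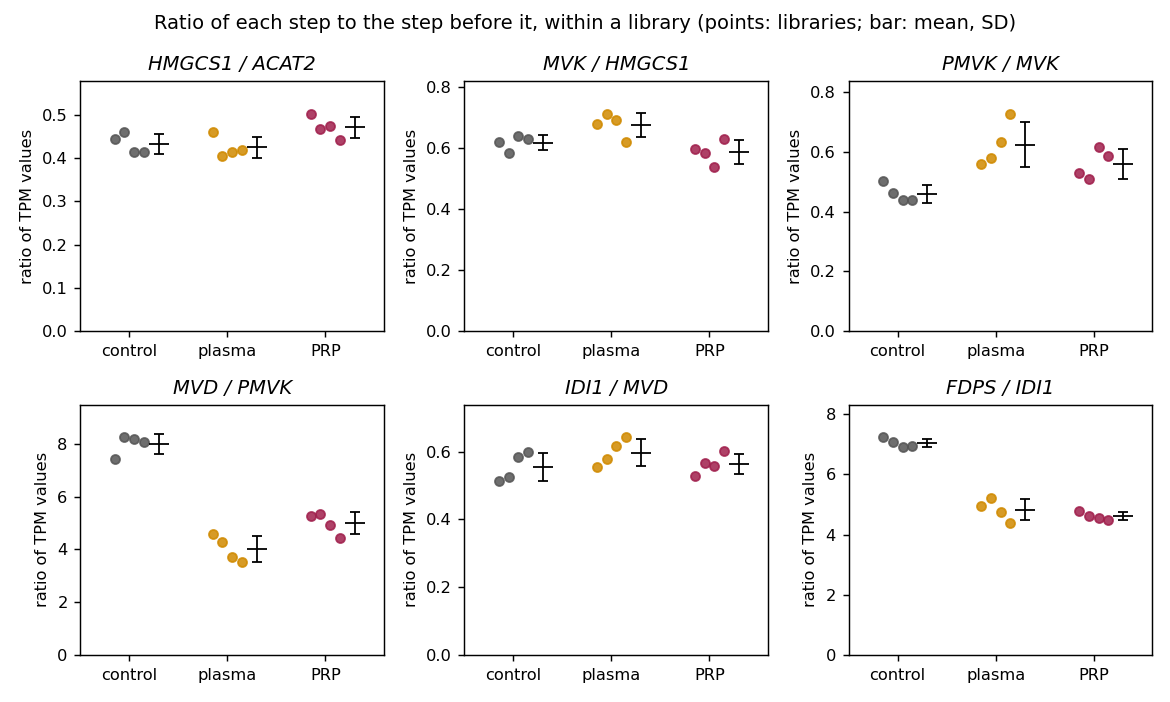
Ratio of the TPM of each mevalonate gene to that of the gene before it in the pathway (vertical axes, from 0), with 1 point per library and a bar for the mean and SD of 4 libraries. Control points stand apart from all treated points for PMVK to MVK, MVD to PMVK and FDPS to IDI1, with means of 7.04, 4.82 and 4.61 for the last in control, plasma and PRP.

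Promoter sequence is shown for 4 members that fell, because genes of this arm are known to carry CCAAT boxes, the binding motif of NF-Y, a cofactor of SREBP-2. RefSeq windows of 300 bases, from 250 before to 50 after a start site, were at hand for 6 of the 7 members, 9 windows in all on GRCh38.p14. ACAT2 was not in the table. The stretches below are the parts of 4 of those windows that lie in no annotated exon, 5′ to 3′ on the gene's strand. Capitals mark CCAAT or its reverse complement ATTGG. Matches outside the stretches are not shown, and the FDPS stretch ends within the match at 122 bases before the start, left unmarked. The stretches are FDPS at chr1:155308616-155308747 on the plus strand, and on the minus strand MVD at chr16:88663162-88663297, HMGCS1 at chr5:43313513-43313662 and IDI1 at chr10:1049171-1049369.
FDPS: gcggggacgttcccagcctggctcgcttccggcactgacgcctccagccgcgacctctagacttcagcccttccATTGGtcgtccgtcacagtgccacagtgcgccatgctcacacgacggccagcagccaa
MVD: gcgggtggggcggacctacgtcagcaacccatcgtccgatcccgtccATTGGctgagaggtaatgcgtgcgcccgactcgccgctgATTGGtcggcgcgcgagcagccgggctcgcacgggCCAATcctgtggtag
HMGCS1: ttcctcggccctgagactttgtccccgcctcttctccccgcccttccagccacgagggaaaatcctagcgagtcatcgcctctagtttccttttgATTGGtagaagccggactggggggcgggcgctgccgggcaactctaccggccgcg
IDI1: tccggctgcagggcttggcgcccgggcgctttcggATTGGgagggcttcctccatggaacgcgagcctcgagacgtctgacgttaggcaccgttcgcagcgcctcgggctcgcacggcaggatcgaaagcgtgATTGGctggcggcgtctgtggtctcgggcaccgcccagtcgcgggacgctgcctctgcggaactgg

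MVK had the most CCAAT matches of any member window, 5. That window, chr12:109573544-109573843, overlaps the window of its neighbour MMAB, chr12:109573455-109573754 on the minus strand, which also held 5. The matches are therefore not particular to MVK. Those of MVK are shown with 10 bases on either side, read in the direction of the motif, and named by the number of bases before the start site.
MVK 210: gaactgcgaaCCAATaaaaattgaa
MVK 157: ttccgttaaaCCAATgggaaacaag
MVK 94: cacctattgaCCAATgttcaagcct
MVK 79: agtacctttaCCAATaggcttgaac
MVK 46: ttcaggccagCCAATcagagcgcgc

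Searched on both strands, CCAAT occurred in 5 of the 6 members with a window. FDPS and MVD had 3 matches each, HMGCS1 had 2 in 1 of its windows and none in the other, and IDI1 had 0, 3 and 2 in its windows, of which the second holds a palindrome counted on each strand and overlaps the third. PMVK had none. Over all 35116 windows 34.6% held CCAAT and 3.26% held 3 or more, and 43.4% of the 10102 tested genes with an entry held it in a window. The classical sterol regulatory element, searched as TCACNCCAC, was in none of the 9 windows and in 1.13% of all windows. The GC box GGGCGG was in a window of 6 of 6 members, and in a window of 77.4% of tested genes with an entry. In the sterol arm CCAAT was in a window of 8 of 10 genes, beside the 43.4% of tested genes above. The exceptions were LBR, which did not pass the test against control, and CYP51A1, which fell with plasma and, in the main test, with PRP. A match is letters in a window and no measure of binding.

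Positions and neighbours matter for reading these values, because the sources used here do not say whether reads were assigned by strand. In GENCODE 29 on GRCh38, FDPS spans chr1:155308748-155320666 on the plus strand and overlaps the antisense RNA RUSC1-AS1 over 3804 bases. MVD lies at chr16:88651935-88663161, HMGCS1 at chr5:43289395-43313512, PMVK at chr1:154924734-154936991 and IDI1 at chr10:1039152-1049170, all on the minus strand, and IDI1 overlaps IDI2-AS1 over 5050 bases. HMGCS1 overlaps the antisense RNA AC114947.2 over 1445 bases. FDPS also has 8 named pseudogenes, none of which has a row of its own, so its reads are uncertain to that extent.

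ACAT2 and MVK each overlap a gene on the other strand. MVK, at chr12:109573255-109598117, overlaps MMAB, an enzyme of vitamin B12 metabolism, over 620 bases, where both genes start. Their promoter windows overlap too, and whether this bears on their levels was not tested. MMAB was at 89.1 ± 2.48 TPM in control, 57.0 ± 4.17 in plasma and 57.8 ± 4.93 in PRP, and it fell with both treatments (log2 differences -0.64 and -0.62, limma adjusted p = 1.77e-06 and 1.79e-06). ACAT2, at chr6:159760328-159779055, overlaps TCP1, a subunit of the chaperonin TRiC, over 558 bases, and the non-coding RNA SOD2-OT1 over 2005 bases. TCP1 was at 456 ± 7.03, 360.5 ± 19.2 and 358 ± 20.6 TPM and also fell (log2 differences -0.34 and -0.35, limma adjusted p = 3.12e-05 and 1.95e-05). Neither neighbour passed in PRP against plasma. Reads of MVK and MMAB, or of ACAT2 and TCP1, that lie in the shared bases cannot be told apart if strand was not used.

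In the sterol arm, which turns farnesyl diphosphate into cholesterol, 11 of 13 genes fell with plasma and 11 of 13 with PRP, and none rose. The median log2 differences were -0.64 and -0.54. SQLE, squalene epoxidase, went from 256 ± 7.85 TPM to 135 ± 6.40 with plasma and 157 ± 6.25 with PRP. MSMO1, a sterol C4-methyl oxidase, had 239.7 ± 10.9, 130.4 ± 5.69 and 154 ± 6.60 TPM. DHCR7, which reduces 7-dehydrocholesterol, had 216 ± 9.57, 110.0 ± 7.19 and 125 ± 6.77 TPM, and LSS, lanosterol synthase, 148 ± 10.97, 79.5 ± 2.93 and 89.5 ± 5.27 TPM. All 4 fell in both comparisons with limma adjusted p of at most 1.66e-07. Among the genes that did not pass was LBR, a sterol reductase of the nuclear envelope, named after its values were seen (62.7 ± 2.97, 61.2 ± 3.40 and 64.3 ± 3.45 TPM). With reads in limma's voom, an alternative fit, 10 sterol genes fell and 2 rose in PRP against control. There CYP51A1 no longer passed (log2 difference -0.06, voom adjusted p = 0.13), and LBR (0.11, voom adjusted p = 0.0431) was among those that passed as higher.

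Against plasma, PRP was higher for 1 of the 13 sterol genes in limma, CYP51A1, lanosterol demethylase, with 10 higher at an unadjusted p under 0.05. The count was 3 in voom and after median centring, and 2 without control replicate 1. It had 152 ± 4.90 TPM in control, 108 ± 4.73 in plasma and 138 ± 5.81 in PRP, a log2 difference of 0.36 between PRP and plasma (limma adjusted p = 0.00544). FDFT1, squalene synthase, which draws farnesyl diphosphate into this arm, had 275 ± 5.98, 195 ± 8.44 and 226 ± 8.13 TPM and a log2 difference of 0.21 (limma adjusted p = 0.0628). All 13 estimates were above 0, with a median of 0.18, as for the mevalonate arm at 0.19.

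A list of genes for the non-sterol uses of farnesyl and geranylgeranyl diphosphate moved less evenly. Not all of its genes act on these compounds, as ZMPSTE24, ICMT and SRD5A3 act on later products. Of 19 genes 10 fell and 3 rose with plasma, and 10 fell and 4 rose with PRP, with median log2 differences of -0.16 and -0.14. Centred on the median of all genes, 5 fell and 4 rose with plasma and 6 fell and 5 rose with PRP, and in voom on length-divided reads 6 fell with plasma. GGPS1, which extends farnesyl to geranylgeranyl diphosphate, was at 62.2 ± 3.98 TPM in control, 44.4 ± 1.42 in plasma and 46.8 ± 3.05 in PRP (limma adjusted p = 1.01e-05 and 3.60e-05 against control). ZMPSTE24 and ICMT, which finish prenylated proteins by proteolysis and methylation, had 96.9 ± 1.74 and 204 ± 3.96 TPM in control, 72.4 ± 1.69 and 161 ± 2.89 in plasma, and 69.3 ± 2.69 and 159.8 ± 4.16 in PRP. These 3 genes fell with both treatments. SRD5A3, which completes dolichol, rose from 8.15 ± 0.767 TPM to 16.2 ± 1.68 in plasma and 16.2 ± 2.82 in PRP (limma adjusted p = 1.23e-05 and 1.06e-05). FNTB, the beta subunit of farnesyltransferase, and NUS1, a subunit of the dolichol synthase, were the other genes that rose with plasma. They rose with PRP too, as did PDSS1, a subunit of the enzyme that makes the ubiquinone side chain, and FNTB and NUS1 were named after their values were seen. In PRP against plasma 0 of 19 passed in limma, with 1 lower and 1 higher at an unadjusted p under 0.05 and 0 in voom.

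Among 10 genes of SREBP sensing and lipoprotein uptake 8 fell and 1 rose in each comparison with control, with median log2 differences of -0.58 and -0.55. STARD4, a carrier of cholesterol between membranes, had 113.6 ± 2.40 TPM in control, 53.8 ± 0.907 in plasma and 59.5 ± 1.86 in PRP. SREBF2, which encodes SREBP-2, had 196 ± 12.0, 117 ± 7.54 and 116 ± 7.33 TPM. INSIG1, which retains SREBP in the endoplasmic reticulum, had 175 ± 3.64, 113 ± 7.68 and 128 ± 5.15 TPM. These 3 fell with both treatments, with limma adjusted p of at most 2.91e-06. The gene that rose was MBTPS2, an SREBP protease, named after its values were seen, at 10.6 ± 0.505, 12.3 ± 0.694 and 12.8 ± 0.755 TPM. With plasma no gene of the list passed as higher without control replicate 3, without plasma replicate 4 or without the 3 libraries numbered 1. In PRP against plasma 0 of 10 passed in limma, with 1 lower and 3 higher at an unadjusted p under 0.05 and 0 in voom.

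Of 10 genes of acetyl-CoA supply and of mitochondrial HMG-CoA and ketone metabolism, 8 were tested. With plasma 5 fell and 1 rose, with PRP 5 fell and 2 rose, and the median log2 differences were -0.29 and -0.22. BDH1, a ketone body dehydrogenase, was among those that rose with PRP. The count that rose with plasma was 0 without control replicate 3 or 4 and 2 in voom on reads, and with PRP it was 1 without control replicate 3 or 4, PRP replicate 1 or 4, or the 3 libraries numbered 1. ACLY, ATP citrate lyase, which makes the cytosolic acetyl-CoA that ACAT2 uses, had 649 ± 19.0 TPM in control, 237 ± 30.6 in plasma and 278 ± 26.7 in PRP (log2 differences -1.46 and -1.23, limma adjusted p = 1.70e-08 and 5.25e-08). ACSS2, which makes acetyl-CoA from acetate, had 117 ± 6.07, 71.4 ± 3.04 and 85.7 ± 6.86 TPM and also fell with both. SLC25A1, the mitochondrial citrate carrier, and AACS, acetoacetyl-CoA synthetase, fell less, by log2 differences of -0.37 and -0.33 with plasma and -0.29 and -0.26 with PRP. In PRP against plasma 0 of 8 passed in limma, with 0 lower and 3 higher at an unadjusted p under 0.05 and 1 higher in voom.

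**Figure D4:**
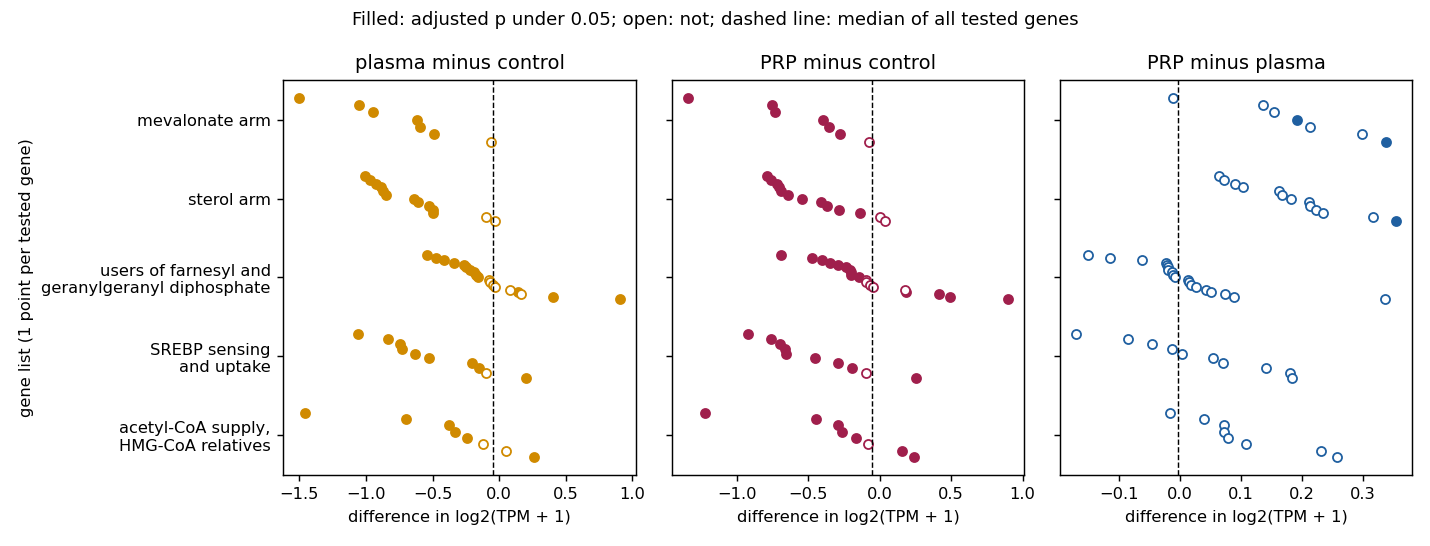
Differences in log2(TPM + 1) of the tested genes of the mevalonate arm and 4 related lists (1 point per gene), filled where the limma adjusted p is under 0.05, with a dashed line at the median of all genes tested. Of the mevalonate genes 6 of 7 are filled and left of the line in each comparison with control, and 2 of 7 are filled and right of it in PRP against plasma.

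The genes whose levels ran most like FDPS over the 12 libraries, by Pearson's r on log2(TPM + 1) among 10223 candidates, were STARD4 (0.996), PRNP (0.994), RASSF9 (0.993), ITPRID2 (0.993) and AMIGO2 (0.992). PRNP, the prion protein gene, had means of 279.5, 182 and 187 TPM in control, plasma and PRP. For HMGCS1 they were CYP51A1 (0.975), FDFT1 (0.968), FHL2 (0.958), EBP (0.957) and MPV17L2 (0.950). The sterol genes CYP51A1, FDFT1 and EBP are in the HMGCS1 set and none of the sterol arm is in the FDPS set. The lowest r in the FDPS set, 0.992, is above the highest in the HMGCS1 set, 0.975. Absence from the FDPS set therefore does not show that the sterol genes follow FDPS less closely than HMGCS1. Such values are descriptions, since the libraries fall into groups and r mostly reflects the differences between group means.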

How the data were processed

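Polyadenylated RNA was sequenced from 12 libraries, 4 per group. The kits were RNeasy for extraction and Watchmaker for the libraries, per the labels' protocols. The submitters' processing notes name Salmon and the build hg38 and give no version. Per the file headers, the deposited values are TPM, the estimated count of reads, length and effective length for 20375 genes. TPM recomputed from the deposited reads and effective lengths matched for 20375 of 20375 genes in all 12 libraries, with a tolerance of 1% of the value and a further 0.01 TPM.

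The planned count model was not run, because the decimal commas of the deposited tables kept the columns from being registered as counts. The stated alternative became the main test, which was limma 3.58.1 in R 4.3.3 on log2(TPM + 1). Genes had to reach 1 TPM in 4 libraries or more, which 12517 did. The model had a term for each group, all 12 libraries and 9 residual degrees of freedom. Two-sided p-values were adjusted by Benjamini and Hochberg's method over all genes tested and read at 0.05. The voom fit of limma on the reads was an alternative added once the data had been seen. Simulated data with known changes were used to test the main fit. The exact permutation test was tried on random values with no difference and on a made-up example. The alternative settings were not tested in this way.

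Ratios of neighbouring genes were compared as log2 ratios by exact permutation over 70 assignments, adjusted over 18 tests. Other genes named are the 4 with the smallest adjusted p per list and comparison, MMAB, TCP1, IDI2, and the 5 most like FDPS and the 5 most like HMGCS1 with a mean of at least 5 TPM. Some genes that this rule names are not reported here. The members and lists were chosen with earlier results of these data known. Total reads per library were 40166503 to 41531218 for control, 36258955 to 41946780 for plasma and 36943548 to 41976136 for PRP. No pair of libraries of a group agreed within sampling noise. Promoter windows are from RefSeq and gene positions from GENCODE.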

Additional observations from a re-analysis of the deposited data

Results flagged for a closer look

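Each member, their sum and the step ratios were checked in each group for a library set apart from the other 3, in 42 groups of 4 libraries. In 0 of 42 did the gap of the outermost library to its neighbour exceed the share of the group's range set by Dixon's critical value, where chance would give about 2.1.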

How the results depend on the processing

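The falls of ACAT2, HMGCS1, MVK, MVD, IDI1 and FDPS against control kept their direction and an adjusted p under 0.05 in 20 of 20 alternatives, for plasma and for PRP. These were another pseudocount (0.1), no filter on low values, centring on the median, voom on reads and on length-divided reads, only the 8 libraries compared, a replicate block, each library left out, and all 3 libraries numbered 1 left out. In PRP against plasma HMGCS1 passed in 20 of 20, ACAT2 in 9 (adjusted p 0.0319 to 0.179), MVD in 5 (0.00375 to 0.228), IDI1 in 3 (0.0326 to 0.228), and MVK, PMVK and FDPS in 0. The number of members higher there, 2, was 1 to 3 with a library left out and 1 without the 3 libraries numbered 1. The number of all genes called there, 8, ran from 2 to 16. The cause of these shifts was not tested.

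The sign of uncalled differences near 0 turned in places. PMVK in plasma against control, -0.06, became 0.0039 in voom on reads and 0.0096 without the libraries numbered 1. With a library left out, PMVK in PRP against plasma ran from -0.040 to 0.036, being 6.2e-05 without plasma replicate 3, 0.018 without plasma replicate 4 and 0.036 without PRP replicate 2. Log2 IDI1 to MVD in PRP against control ran from -0.014 to 0.058, being -0.014 without control replicate 1, -0.0046 without control replicate 2 and -0.010 without PRP replicate 4. Log2 HMGCS1 to ACAT2 in plasma against control ran from -0.068 to 0.0013, the latter without control replicate 2.

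Whether the replicate numbers pair the libraries is not settled by these values. After removal of group means 5 of 12 same-numbered pairs correlated over 0.1 (r from -0.07 to 0.30). Pairs with different numbers had r from -0.22 to 0.20. In both other groups at once, 4 of 12 libraries correlated best with their own number. With the number as a replicate block, 6, 6 and 3 members were called in the 3 comparisons. MVD then had a limma adjusted p of 0.0162 in PRP against plasma. For step ratios the block could not decide, since 16 paired assignments allow no p under 0.05. Scaling by edgeR's TMM was not run, as edgeR was not used, and median-of-ratios scaling stood in for it in the voom fits. The medians that centring removes were -0.06, -0.06 and -0.01 on the log2 scale. PMVK, with 655 to 872 reads a library, is the least precisely measured member.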

Other observations

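The spread between libraries of a group differed among the mevalonate genes and was given by the coefficient of variation of TPM over 4 libraries. It was lowest for ACAT2 in plasma, at 1.60%, and highest for PMVK in control, at 7.75%. FDPS varied by 2.82% in control, 6.78% in plasma and 2.64% in PRP. IDI1 varied by 4.36%, 1.84% and 2.22%, and MVD by 4.17%, 7.12% and 5.39%.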
